A study of Rattus norvegicus with 20 samples.

Results

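The growth hormone and IGF axis was followed in rat liver through 8 genes: the growth hormone receptor Ghr, the hormone Igf1, its circulating partners Igfals, Igfbp1, Igfbp2 and Igfbp3, and the feedback genes Socs2 and Cish. Every probe set of the array that the platform annotation gives 1 of these symbols was taken, which found 13 probe sets for the 8 genes, of 14217 genes with a probe set. All 8 passed the filter on low signals, as did 11576 genes in all. Total liver RNA was hybridised to Affymetrix expression arrays, with 1 array for each of 20 male Sprague-Dawley rats and no pooling. Rats were 4 weeks of age on arrival and were given a commercial diet for 7 d. They were then fed, for 15 d, a diet with 0.2% sesamin, 0.2% episesamin or 0.2% sesamolin, or a lignan-free diet. Each diet had 7 rats, and the heaviest and the lightest of each were not put on arrays, so n = 5 per diet. Sesamin, episesamin and sesamolin are lignans of sesame seed and sesame oil. Episesamin is the epimer of sesamin, inverted at a carbon that bears an aryl ring, and sesamolin has an oxygen placed between an aryl ring and the fused furan core.

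Growth hormone from the pituitary binds its receptor on hepatocytes, which signals through the kinase JAK2 and the transcription factor STAT5b to Igf1, Igfals, Socs2 and Cish. IGF-1 leaves the liver and circulates mainly in a ternary complex with IGFBP-3 and the acid-labile subunit encoded by Igfals, while IGFBP-1 and IGFBP-2 bind it in smaller complexes, and Igfbp1 is lowered by insulin. Growth hormone is secreted in pulses in male rats, and SOCS2 and CISH are short-lived brakes on its receptor. In rat liver, Igf1 and Igfals are hepatocyte transcripts, whereas Igfbp3 is made mainly by cells other than hepatocytes, among them Kupffer cells and sinusoidal endothelium.

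Array means of the deposited intensities ran from 159 to 271, and 6 arrays were below 200: 1 of sesamin-fed, 2 of episesamin-fed, 2 of sesamolin-fed and 1 of lignan-free rats. The 4 arrays numbered 1 deviated together from their diet means (r = 0.126 to 0.247 over genes). Calls of the members that end without either set of arrays are given with the changed value. Calls of the other genes named below, markers included, were not rechecked without these arrays. Signals below are quantile-normalised intensities, which have no unit and can be compared between diets but not between genes. Changes are log2 differences ± SE from 1 limma fit over all 20 arrays. A change was called when its p-value, adjusted by the Benjamini-Hochberg method over all genes of the comparison, was below 0.05. The 3 comparisons with the lignan-free diet share its 5 arrays, and precision is limited by having 5 arrays a diet. Hepatocyte markers were bright: 9 of 10 had a probe set and all 9 passed the filter. Of the 9, 1 (Ass1, of the urea cycle) was called lower with episesamin and with sesamolin, beside 2.21% and 2.95% of all genes. The summed intensity of the 9 was 96531 to 99777 in sesamin-fed, 92921 to 98015 in episesamin-fed and 94055 to 100750.0 in sesamolin-fed rats, against 97447 to 103830.0 in lignan-free rats.

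Across the axis, Igfbp3 was the gene that changed. It fell in sesamolin-fed rats, whether these were compared with lignan-free or with sesamin-fed rats, and no other member was called in any of the 6 comparisons. Of 8 genes, 0 were called with sesamin against lignan-free, where 0.432% of all genes were called, and 0 with episesamin, where 5.12% were. With sesamolin 1 of 8 was called, lower, beside 2.95% of all genes called lower and 6.24% called in either direction. Between lignans the counts were 0 of 8 for episesamin minus sesamin (1.23% of all genes), 1 of 8, lower, for sesamolin minus sesamin (1.81% of all genes, 0.812% called lower) and 0 of 8 for sesamolin minus episesamin (0% of all genes, with 663 at an unadjusted p below 0.05). The 5 arrays of a diet lay wholly above or below those of the other for 2 members between sesamolin and lignan-free (6.93% of all genes), 1 between sesamolin and sesamin (4.29%) and 0 for sesamin and for episesamin against lignan-free (1.91% and 6.85%), episesamin against sesamin (3.64%) and sesamolin against episesamin (0.803%). At an unadjusted p below 0.05 the 6 comparisons held 0, 1, 2, 0, 1 and 2 members, in the order in which the calls are given above, beside 7.45%, 19.7%, 20.3%, 12.9%, 14.5% and 5.73% of all genes. An F test over the 4 diets called Igfbp3 alone among the members (adjusted p = 0.0168, limma), beside 4.89% of all genes.

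**Figure D1:**
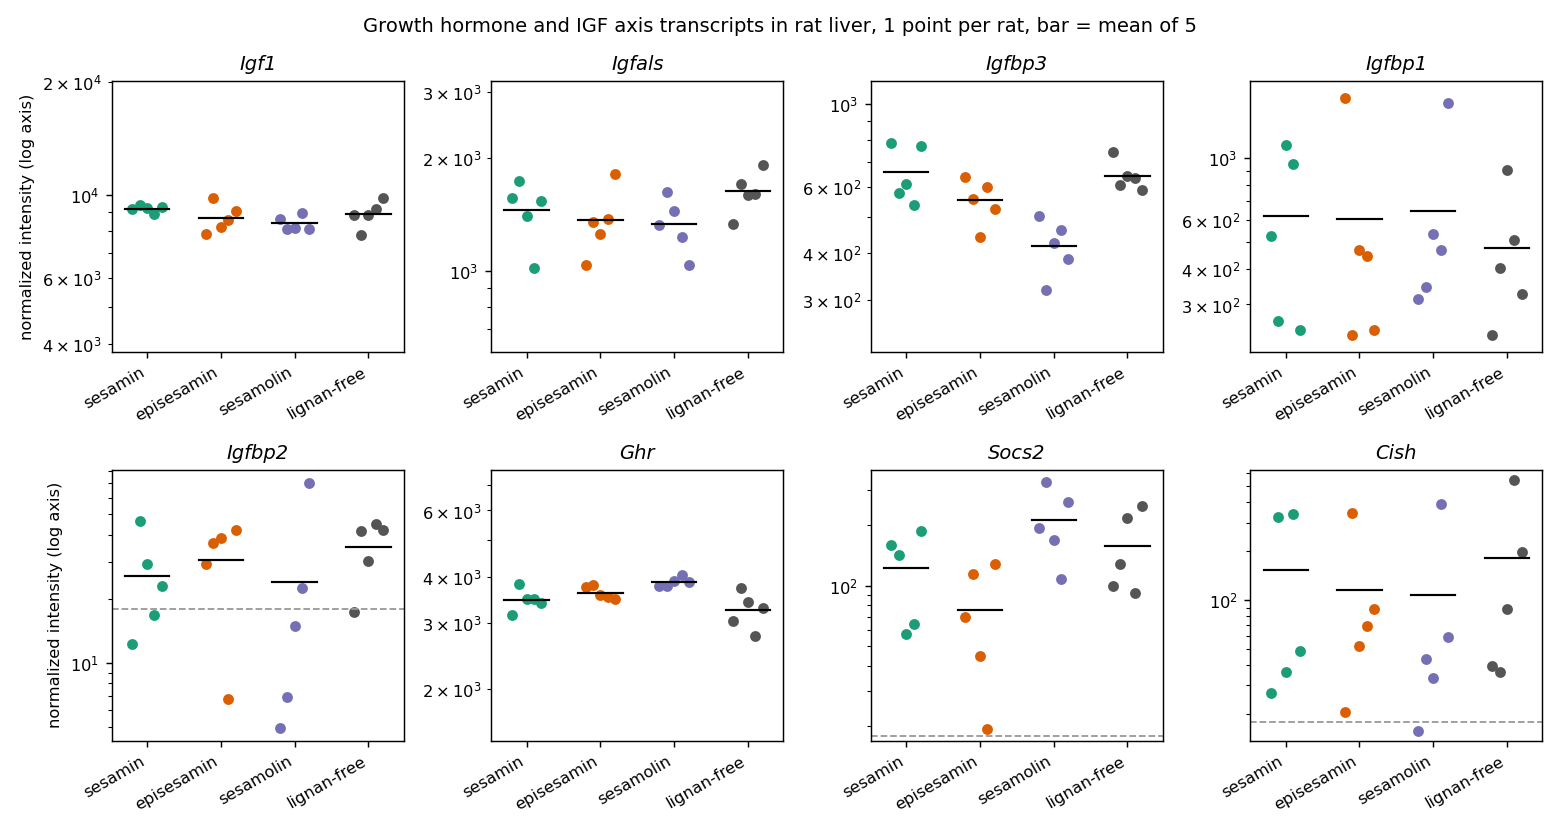
Quantile-normalised intensity of the 8 genes on a log axis, 1 point per rat, with a bar at the mean of 5 rats and a dashed line at the filter level of 17.8; each gene is shown by its brightest probe set and the panels differ in range. Sesamolin-fed rats lie below lignan-free rats for Igfbp3 and above them for Ghr, while Cish and Igfbp1 spread widely within every diet.

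The median log2 change of the 8 members was -0.08 with sesamin, -0.24 with episesamin and -0.19 with sesamolin against the lignan-free diet, beside medians over all genes of -0.01, -0.02 and -0.01. These medians rest on genes that mostly did not pass the test. The spread between rats of a diet differed widely among the members. The residual SD on the log2 scale was 0.09 for Igf1 and 0.10 for Ghr, lower than for 11286 and 11148 of the 11576 genes. It was 1.54 for Cish, 0.95 for Igfbp1, 0.79 for Igfbp2 and 0.75 for Socs2, with 7, 52, 210 and 315 genes more variable. A change of a given size is therefore estimated with very different precision among the members, with an SE of 0.08 for Igf1 and 0.91 for Cish.

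Ghr, the receptor through which the liver senses growth hormone, was not called in any comparison, although its level was highest in sesamolin-fed rats. On its brighter probe set (1373803_a_at) the intensities were 3151, 3815, 3493, 3484 and 3392 in sesamin-fed rats, 3753, 3794, 3569, 3522 and 3475 in episesamin-fed rats and 3774, 3766, 3897, 4041 and 3876 in sesamolin-fed rats. The lignan-free rats had 3049, 3721, 3428, 2779 and 3301. All 5 sesamolin-fed rats lay above all 5 lignan-free rats, the closest pair being 3766 and 3721, whereas the other diets overlapped. The log2 difference was 0.26 ± 0.08 with sesamolin, a 1.19-fold level with a 95% interval of 1.06 to 1.34 (limma, unadjusted p = 0.00446, adjusted p = 0.0625). It was 0.16 ± 0.08 with episesamin (adjusted p = 0.272) and 0.10 ± 0.08 with sesamin (adjusted p = 0.867). The second probe set (1368924_at) gave differences of 0.18 with sesamin, 0.21 with episesamin and 0.22 with sesamolin, with overlapping groups and an adjusted p of at least 0.457. Sesamolin minus lignan-free passed the threshold when lignan-free replicate 2, the highest rat of its group, was left out (log2 0.30, adjusted p = 0.0345), and under 3 other settings of the fit. It was 0.21 with median scaling (adjusted p = 0.298) and 0.09 without normalisation (adjusted p = 0.815), where episesamin minus lignan-free was -0.06.

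Igf1, the main hormonal product of growth hormone action on the liver, was not called on any of its 3 probe sets. The brightest (1370333_a_at) stood at 9126, 9369.6, 9182, 8850.1 and 9277 in sesamin-fed rats, 7845, 9769, 8211, 8543 and 9048 in episesamin-fed rats and 8626, 8093, 8138, 8921 and 8093 in sesamolin-fed rats. Lignan-free rats had 8803, 7806, 8803, 9126 and 9769. All 20 rats thus lay within a 1.25-fold range and the diets overlapped. The changes were 0.05 ± 0.08 with sesamin, -0.03 ± 0.08 with episesamin and -0.08 ± 0.08 with sesamolin, with a 95% interval of -0.24 to 0.08 for sesamolin. This probe set lies at the 99.7th percentile of all probe sets by mean intensity, and whether its signal was near saturation was not tested. The dimmest Igf1 probe set (1382599_at) averaged 1464 ± 153 in sesamin-fed, 1158 ± 116 in episesamin-fed and 1171 ± 126 in sesamolin-fed rats, against 1409.7 ± 166 in lignan-free rats (mean ± SD of 5 rats). Its difference was -0.28 ± 0.11 with episesamin (limma, unadjusted p = 0.0184, adjusted p = 0.17) and -0.27 ± 0.11 with sesamolin (adjusted p = 0.187), and against sesamin it was -0.34 ± 0.11 for episesamin and -0.32 ± 0.11 for sesamolin (adjusted p = 0.188 and 0.173). The third probe set (1388469_at) gave 0.02 with sesamin, -0.17 with episesamin and -0.15 with sesamolin, with an adjusted p of at least 0.274.

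Igfals, which encodes the acid-labile subunit that holds IGF-1 and IGFBP-3 in the large serum complex, was not called. Its intensities were 1564, 1731, 1399, 1016 and 1537 in sesamin-fed rats, 1037, 1353, 1253, 1377 and 1810.4 in episesamin-fed rats and 1323, 1623, 1442, 1227 and 1033 in sesamolin-fed rats. In lignan-free rats they were 1336, 1702, 1596, 1607 and 1914. The ranges of all 4 diets overlapped. The log2 differences from lignan-free were -0.18 ± 0.16 with sesamin, -0.27 ± 0.16 with episesamin and -0.30 ± 0.16 with sesamolin, with adjusted p = 0.878, 0.371 and 0.303 in limma. The interval for sesamolin, -0.63 to 0.03, leaves room for a moderate decrease as well as for no difference.

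Igfbp3, the major carrier of IGF-1 in blood, was lower in sesamolin-fed rats on both of its probe sets. On the brighter probe set (1367652_at), which stands for the gene, intensities were 786, 579, 613, 538 and 774 in sesamin-fed rats, 638, 559, 441, 601 and 525 in episesamin-fed rats and 503, 319, 424, 462 and 385 in sesamolin-fed rats. Lignan-free rats had 744, 606, 644, 636 and 589. Every sesamolin-fed rat lay below every lignan-free and every sesamin-fed rat, and the episesamin-fed rats overlapped with all other diets. The log2 change was -0.63 ± 0.14 in sesamolin-fed against lignan-free rats (adjusted p = 0.00954, limma), a 0.648-fold level with a 95% interval of 0.532 to 0.789. Against sesamin it was -0.65 ± 0.14 (adjusted p = 0.0177, 0.639-fold). Episesamin minus lignan-free was -0.22 ± 0.14 (adjusted p = 0.377), sesamin minus lignan-free was 0.02 ± 0.14 (adjusted p = 0.99) and sesamolin minus episesamin was -0.40 ± 0.14 (unadjusted p = 0.0082, adjusted p = 0.813), none of them called.

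The second Igfbp3 probe set (1386881_at) ordered the diets more sharply. Intensities were 471, 396, 460.0, 435 and 355 in sesamin-fed rats, 271, 329.9, 338, 329 and 326 in episesamin-fed rats and 257, 255, 257, 271 and 232 in sesamolin-fed rats. They were 470.2, 529.9, 621, 464 and 494 in lignan-free rats. Every sesamolin-fed rat lay below all 15 other rats, although the lowest episesamin-fed rat, at 271.3, was barely above the highest sesamolin-fed rat, at 271.1. Episesamin-fed rats in turn lay below every sesamin-fed and every lignan-free rat. Sesamin-fed rats overlapped with lignan-free rats, as 1 of them, at 470.7, exceeded the 2 lowest lignan-free rats. In a fit with each of 15894 probe sets on its own, sesamolin minus lignan-free was -0.998 ± 0.10, a 0.501-fold level (adjusted p = 2.59e-06), and episesamin minus lignan-free was -0.68 ± 0.10, a 0.624-fold level (adjusted p = 0.000307). Sesamin minus lignan-free was -0.28 ± 0.10 (unadjusted p = 0.0115, adjusted p = 0.507). Between lignans, sesamolin minus sesamin was -0.72 ± 0.10 (adjusted p = 0.000748), episesamin minus sesamin -0.40 ± 0.10 (adjusted p = 0.0682) and sesamolin minus episesamin -0.32 ± 0.10 (adjusted p = 0.692, interval -0.53 to -0.11). Of the 13 probe sets of the axis, those called were 0 with sesamin (0.333% of all probe sets), 1 with episesamin (3.77%, with 1.43% called lower) and 2 with sesamolin (4.86%, with 2.26% called lower) against lignan-free, 0 for episesamin minus sesamin (1.04%), 2 for sesamolin minus sesamin (1.37%, with 0.573% called lower) and 0 for sesamolin minus episesamin (0%), and all of them were Igfbp3. As a description over the 20 arrays, r between the 2 probe sets was 0.67, and it was -0.18 for deviations from diet means. Because the gene was represented by the brighter probe set, the fall with episesamin appears at the level of the probe set and not of the gene.

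The 2 probe sets also differed in how firmly the sesamolin call held. The gene's call, which rests on 1367652_at, ended without the 6 dim arrays (log2 -0.47, adjusted p = 0.099) and without normalisation between arrays (log2 -0.84, adjusted p = 0.0761). In the limma fit of probe sets the adjusted p of 1367652_at was 0.117 and 0.0882 under these settings. In that fit the log2 change of 1386881_at was -0.89 (adjusted p = 0.00106) and -1.23 (adjusted p = 0.000783). Against sesamin, the gene's call ended with median scaling (adjusted p = 0.157), without normalisation (0.276), with only the groups compared (0.111) and without the dim arrays (0.118). Without normalisation the call of 1386881_at against sesamin ended too (adjusted p = 0.0786), and without the arrays numbered 1 that of 1367652_at did in the fit of probe sets (adjusted p = 0.0545). The gene's call also ended without sesamin replicate 5, 1 of the 2 brightest sesamin-fed rats on this probe set (log2 -0.58, adjusted p = 0.0533).

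Markers of Kupffer cells and of sinusoidal endothelium included genes that fell with episesamin and with sesamolin. Of 14 Kupffer cell and macrophage markers 11 had a probe set, all 11 passed the filter, and 0 were called with sesamin, 3 with episesamin and 7 with sesamolin, all lower, beside 2.21% of all genes called lower with episesamin and 2.95% with sesamolin. Their summed intensity was 5831 to 9222 in sesamin-fed, 5851 to 7104 in episesamin-fed and 4736 to 6594 in sesamolin-fed rats, against 8076 to 9215 in lignan-free rats. Episesamin-fed and sesamolin-fed rats therefore lay below all lignan-free rats. The complement gene C1qa, a product of Kupffer cells, changed by -0.87 ± 0.13 with sesamolin (adjusted p = 0.00036), and Clec4f, a receptor confined to Kupffer cells in rodents, by -0.74 ± 0.16 (adjusted p = 0.0109). Of 14 sinusoidal endothelial markers 12 had a probe set and passed, and Kdr and Lyve1 were called lower with episesamin and with sesamolin. The shares of all genes called lower were again 2.21% and 2.95%. Of the 12 markers, 8 were below 0 with episesamin (median log2 -0.08) and 9 with sesamolin (median -0.20), and the others were not. Lyve1 averaged 1076 and Kdr 832, so these called genes weigh heavily in the sum of the list. The endothelial sums were 4431 to 4864 in sesamin-fed, 4229 to 4559 in episesamin-fed and 3983 to 4612 in sesamolin-fed rats, against 4696 to 5407 in lignan-free rats. All 14 stellate cell and fibroblast markers passed and none was called in the 3 comparisons with lignan-free, with sums of 3957 to 4605, 3925 to 4738 and 3395 to 4595 in the sesamin, episesamin and sesamolin groups, against 4537 to 6860.2 in lignan-free rats. In RNA of whole liver, fewer cells of a type and less RNA per cell cannot be told apart. Of 29 listed markers of bile duct, lymphocytes and neutrophils, red blood cells, pancreas and fat, 14 were tested. Of these 1, the elastase gene Cela1, was called, higher with episesamin (log2 0.72 ± 0.21, adjusted p = 0.0484, limma), beside 5.12% of all genes called in either direction. The 3 bile duct markers summed to 170.1 to 246 in sesamin-fed, 177 to 285 in episesamin-fed and 271 to 326 in sesamolin-fed rats, against 190.5 to 254 in lignan-free rats, so that sesamolin-fed rats lay above all lignan-free rats. The 5 lymphocyte and neutrophil markers summed to 159 to 403 in sesamin-fed, 82.0 to 198 in episesamin-fed and 112 to 255 in sesamolin-fed rats, against 178 to 301 in lignan-free rats, with overlap. The part of stellate cells, bile duct cells, lymphocytes and neutrophils in the Igfbp3 values was not tested. That of Kupffer cells and endothelium was followed only through marker covariates, given next.

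With the mean Kupffer marker level of each array as a covariate, the sesamolin change of Igfbp3 on 1367652_at was -0.93 and no longer called. Its adjusted p was 0.0565 in the limma fit of genes and 0.0708 in that of probe sets. On 1386881_at the change was -0.99 (adjusted p = 0.00857, fit of probe sets). With the endothelial marker level as the covariate, the changes were -0.83 on 1367652_at (adjusted p = 0.000844, fit of genes) and -0.92 on 1386881_at (adjusted p = 6.13e-05, fit of probe sets). Both covariates were chosen after the data were seen. The summed intensities of both marker lists did not overlap between sesamolin-fed and lignan-free rats. The covariates were means of log2 levels, and whether these overlapped between diets was not examined. Marker level and diet were therefore not shown to be separable in these fits.

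**Figure D2:**
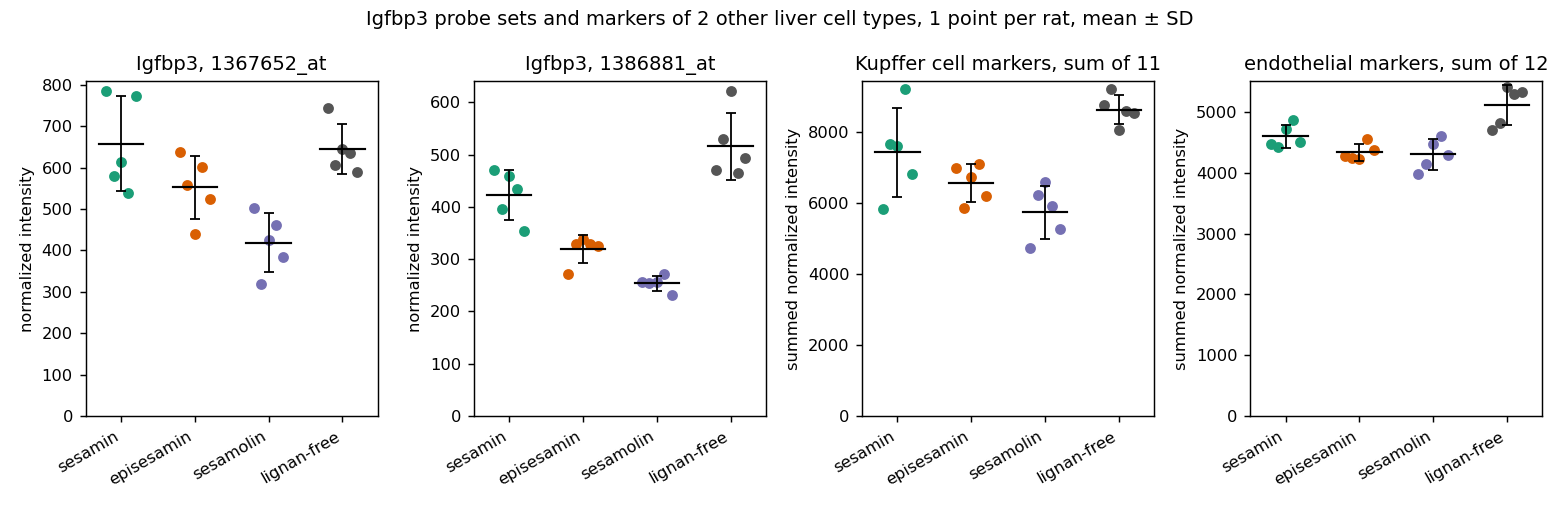
The 2 Igfbp3 probe sets and the summed intensities of 11 Kupffer cell and 12 endothelial markers, on linear axes from 0, with 1 point per rat and mean ± SD of 5 rats. Sesamolin-fed rats lie below lignan-free rats in all 4 panels, and episesamin-fed rats do so for 1386881_at and for both marker sums.

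Igfbp3 and Igfbp1 are neighbours on rat chromosome 14, on opposite strands, and their promoters are shown because 1 of the pair fell with sesamolin and the other was not called. The sequences are those of RefSeq on build GRCr8, from 250 bases before the annotated start to 50 after it. Igfbp3 lies on the minus strand at chr14:86277895-86278194 and Igfbp1 on the plus strand at chr14:86261027-86261326. Capitals mark an exact match to TGTTTTG on either strand, 1 form of the letters bound by the insulin-restrained factors FOXO1 and FOXO3. Other forms of the FOXO letters were not searched, so a window without a match can still hold them.
Igfbp3: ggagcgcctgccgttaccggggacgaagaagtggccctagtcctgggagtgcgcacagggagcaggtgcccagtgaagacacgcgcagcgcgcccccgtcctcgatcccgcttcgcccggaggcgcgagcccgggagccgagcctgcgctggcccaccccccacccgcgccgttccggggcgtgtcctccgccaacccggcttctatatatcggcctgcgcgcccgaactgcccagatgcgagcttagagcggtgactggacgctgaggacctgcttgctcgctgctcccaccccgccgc
Igfbp1: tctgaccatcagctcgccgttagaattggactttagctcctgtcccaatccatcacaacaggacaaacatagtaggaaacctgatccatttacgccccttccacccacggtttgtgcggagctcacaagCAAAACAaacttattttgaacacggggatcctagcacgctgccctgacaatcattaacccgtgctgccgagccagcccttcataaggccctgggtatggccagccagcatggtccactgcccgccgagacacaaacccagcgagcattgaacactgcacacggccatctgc
The Igfbp1 promoter held 1 match, at -121 to -115 from the start, and the Igfbp3 window held none. Of 33469 rat promoters of the same length, 6.28% held a match. The STAT5 letters TTCNNNGAA and the PPAR element, a direct repeat of AGGTCA with 1 base between, were found in neither window, nor in those of Igfals, Igfbp2 and Ghr, and they occurred in 8.87% and 0.0538% of all promoters. Both strands were searched. A match describes letters in a window and does not show binding.

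Igfbp1, an insulin-lowered binding protein that changes quickly with feeding, varied strongly between rats of every diet. Its intensities were 528, 262, 1113, 948 and 243 in sesamin-fed rats, 1634, 234, 468, 445 and 243 in episesamin-fed rats and 314, 345, 534, 468 and 1574 in sesamolin-fed rats. In lignan-free rats they were 233, 403, 902, 511 and 327. The highest rat exceeded the lowest of its diet 4.57-fold with sesamin, 6.98-fold with episesamin and 5.02-fold with sesamolin, against 3.87-fold on the lignan-free diet, and all diets overlapped. The log2 differences of 0.26 ± 0.56, 0.09 ± 0.56 and 0.31 ± 0.56 with sesamin, episesamin and sesamolin were within this spread (adjusted p = 0.959, 0.95 and 0.804, limma). At this spread a difference of 1 log2 unit in either direction lies inside or near the edge of each interval, for example -0.86 to 1.49 with sesamolin.

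Igfbp2, a second insulin-lowered binding protein of the liver, was close to the filter level of 17.8 and exceeded it on 13 of 20 arrays. Intensities were 12.2, 46.7, 29.3, 16.8 and 23.0 in sesamin-fed rats, 29.1, 36.6, 38.6, 6.74 and 42.0 in episesamin-fed rats and 4.94, 6.91, 14.9, 22.5 and 70.6 in sesamolin-fed rats. Lignan-free rats had 17.4, 41.6, 30.1, 45.1 and 42.0. The sesamolin group held both the lowest and the highest of all 20 rats. The log2 difference was -0.43 ± 0.46 with sesamin, -0.26 ± 0.46 with episesamin and -0.79 ± 0.46 with sesamolin, and none was called (lowest adjusted p = 0.355). Differences of probe sets this dim are imprecise, and the interval with sesamolin was -1.77 to 0.18.

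Socs2, a growth hormone-induced suppressor of its receptor's signal, was lowest in episesamin-fed and highest in sesamolin-fed rats, with no comparison past the threshold. Its intensities were 159, 143, 57.4, 64.9 and 187 in sesamin-fed rats, 69.7, 115, 45.0, 19.5 and 129 in episesamin-fed rats and 194, 329, 169, 109 and 262 in sesamolin-fed rats. Lignan-free rats had 100.3, 129, 218, 92.5 and 248. The episesamin-fed rats included the 2 lowest of all 20 and the sesamolin-fed rats the 2 highest, with overlap between all diets. Sesamolin minus episesamin was 1.57 ± 0.44, a 2.96-fold level with an interval of 1.55 to 5.64 (unadjusted p = 0.00233, adjusted p = 0.623, limma). Episesamin minus lignan-free was -1.13 ± 0.44 (unadjusted p = 0.0197, adjusted p = 0.158), sesamolin minus lignan-free 0.43 ± 0.44 and sesamin minus lignan-free -0.38 ± 0.44. Episesamin minus lignan-free was -0.36 without the dim arrays (adjusted p = 0.729), and sesamolin minus lignan-free was -0.9997 with the Kupffer covariate (adjusted p = 0.59). With a block for the replicate number, episesamin minus lignan-free stayed at -1.13 and was called (adjusted p = 0.0301, limma).

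Cish, the other feedback gene and an early target of STAT5, varied more between rats of 1 diet than any other member. On probe set 1378586_at the intensities were 27.0, 322, 36.4, 337 and 48.8 in sesamin-fed rats, 20.5, 344, 52.3, 69.8 and 88.1 in episesamin-fed rats and 15.7, 43.8, 33.2, 389.7 and 59.4 in sesamolin-fed rats. Lignan-free rats had 39.6, 36.2, 87.7, 550.1 and 198. The 20 rats spanned a 35.0-fold range, and each diet held 1 or 2 rats far above its others: 2 with sesamin, 1 with episesamin, 1 with sesamolin and 2 on the lignan-free diet. The second probe set (1388233_at) gave 19.9, 218, 22.9, 178 and 18.5 in sesamin-fed rats, 18.3, 172, 41.4, 15.1 and 29.96 in episesamin-fed rats and 12.99, 12.7, 11.4, 192 and 21.5 in sesamolin-fed rats, against 20.8, 29.2, 38.7, 240.5 and 62.9 in lignan-free rats. Both probe sets ranked the same rats at the top, and their r over 20 arrays was 0.94, also for deviations from diet means. Under this spread the log2 differences from lignan-free were -0.25 ± 0.91 with sesamin, -0.48 ± 0.91 with episesamin and -0.85 ± 0.91 with sesamolin (lowest adjusted p = 0.644), with intervals over 3 log2 units wide.

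**Figure D3:**
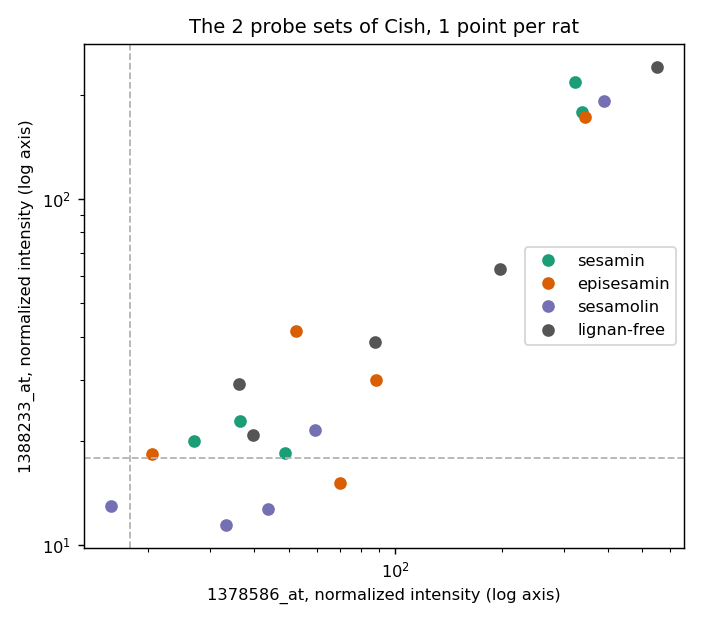
Normalised intensity of the 2 Cish probe sets on log axes, 1 point per rat, coloured by diet, with dashed lines at the filter level of 17.8. The 5 rats above 300 on the first probe set (2 sesamin-fed, 1 episesamin-fed, 1 sesamolin-fed and 1 lignan-free) are also the 5 above 150 on the second.

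The Cish promoter is shown because STAT5 letters are dense in it. It lies on the plus strand of chromosome 8 at chr8:116850719-116851018 (RefSeq, GRCr8). Capitals mark TTCNNNGAA, a palindrome that reads the same on both strands, and a reverse-strand match to TGTTTTG.
Cish: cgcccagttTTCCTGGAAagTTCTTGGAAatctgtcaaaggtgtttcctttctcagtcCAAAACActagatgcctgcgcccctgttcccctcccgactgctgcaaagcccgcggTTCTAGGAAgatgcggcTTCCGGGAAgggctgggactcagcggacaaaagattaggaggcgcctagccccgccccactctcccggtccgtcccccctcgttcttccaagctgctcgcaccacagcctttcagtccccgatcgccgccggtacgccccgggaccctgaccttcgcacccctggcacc
The window held 4 STAT5 matches, at -241 to -233, -230 to -222, -136 to -128 and -119 to -111 from the start, and 1 FOXO match at -192 to -186, none of them overlapping. Of 33469 promoters 183 (0.547%) held 2 or more STAT5 matches and 2 held 4 or more. The Igf1 window held no STAT5 match and 1 FOXO match at -67 to -61. Promoters of 7 of the 8 genes were in the sequence table.

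Members were then set against each other over rats, as deviations from diet means (n = 20 rats, 28 pairs, permutation within diets). No pair passed an adjusted p of 0.05, and 3 had an unadjusted permutation p below it for Pearson's r. Igfbp1 and Igfals ran in opposite directions (r = -0.64, permutation p = 0.00848, adjusted p = 0.124, rho = -0.62, adjusted p = 0.266), and r was -0.46 without the 2 rats farthest out in Igfbp1. Igf1 and Cish had r = 0.58 (permutation p = 0.00888, adjusted p = 0.124, rho = 0.49) and 0.45 without the 2 farthest rats. Igf1 and Igfbp1 had r = -0.50 (permutation p = 0.0387, adjusted p = 0.362, rho = -0.53) and -0.55 without the 2 farthest rats. For the feedback genes Socs2 and Cish, r was -0.07 and rho 0.01 (permutation adjusted p = 0.914 and 0.988), and r was -0.18 without the 2 farthest. As a description over the same 20 arrays, which share libraries and brightness, the genes most like a member in log2 level were the forkhead factor Foxa2 (r = 0.94, and 0.95 for deviations from diet means) and the ERK phosphatase Dusp6 (r = 0.85 for both) for Cish, Syncrip-ps2 (r = 0.87, and 0.64 for deviations) and Phc3 (r = 0.85, and 0.68) for Igfbp3, and LOC102549203 and Ammecr1l (r = 0.84 each) for Socs2. For Ghr they were Pomgnt1 (r = 0.84) and C5h1orf50 (r = 0.82), for Igfals Cyp4f6 (r = 0.81) and Tkt (r = 0.77), and for Igfbp2 Ikbkb (r = 0.82) and Dync2h1 (r = 0.77). Igf1 was most like Rbms3 (r = 0.74) and Vps13c (r = 0.73), and Igfbp1 most like Cblif (r = 0.72) and Map3k12 (r = 0.71).

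**Figure D4:**
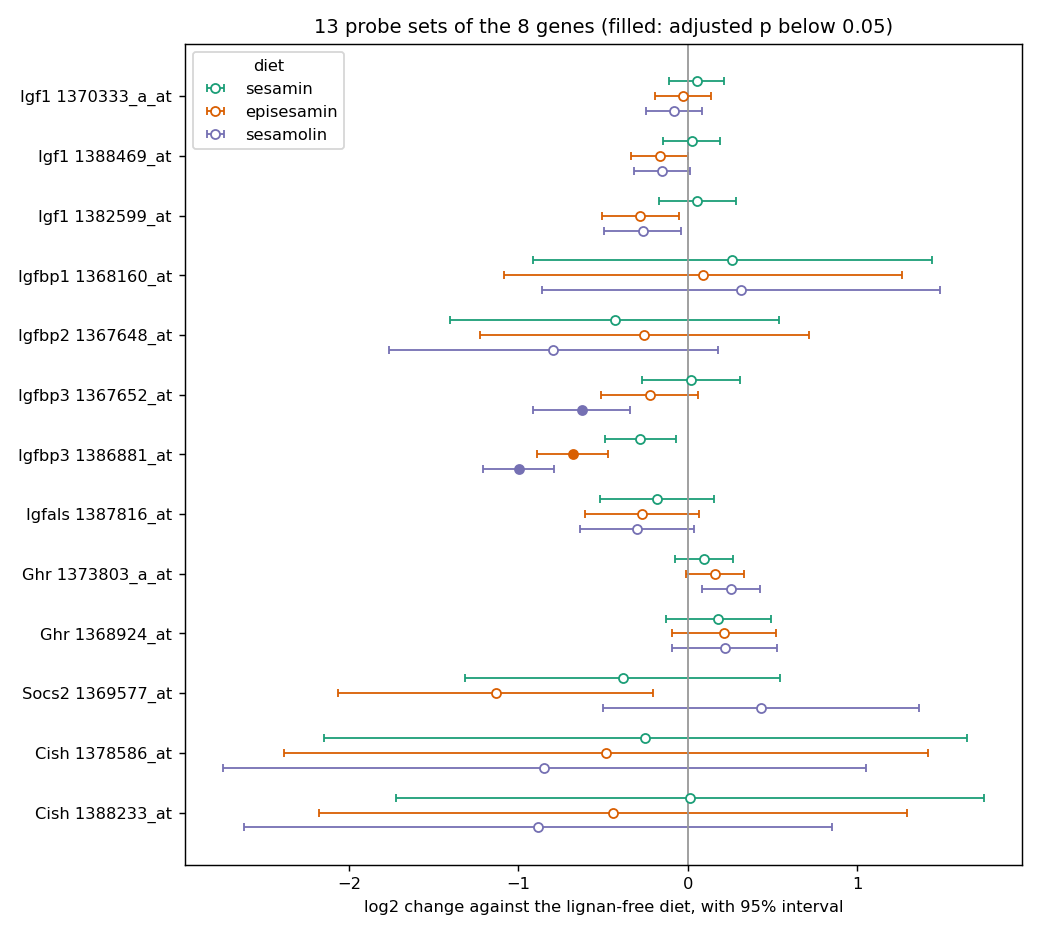
Log2 change of the 13 probe sets against the lignan-free diet with 95% intervals from limma, for sesamin, episesamin and sesamolin in turn, filled where the adjusted p over all probe sets was below 0.05. The 3 filled points are Igfbp3: both probe sets with sesamolin and 1386881_at with episesamin.

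Downstream of the receptor, 15 of 17 listed genes of growth hormone signalling and its feedback were tested. None was called with sesamin, 1 of 15 was lower with episesamin and 1 of 15 was lower with sesamolin, and the list's median log2 changes of -0.02, -0.04 and -0.05 were near those of all genes. Over all genes, 2.21% were called lower with episesamin and 2.95% with sesamolin, so that 1 of 15 is near the background. The kinase gene Jak2 averaged 34.5 ± 7.00 in sesamin-fed, 32.6 ± 3.72 in episesamin-fed and 26.7 ± 9.05 in sesamolin-fed rats, against 43.8 ± 6.13 in lignan-free rats (SD, n = 5). It fell with sesamolin by 0.64 ± 0.15 on the log2 scale (adjusted p = 0.0177, limma), and the 2 groups overlapped. The phosphatase gene Ptpn6, which is abundant in blood-derived cells, averaged 98.4 ± 6.98 in episesamin-fed and 146 ± 23.9 in lignan-free rats, a change of -0.53 ± 0.13 (adjusted p = 0.0259). The bright members Grb2 and Ptpn11, adaptor and phosphatase of the pathway, were within 0.13 of lignan-free in all 3 diets and were not called.

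The wider IGF system held more called genes. Of 16 listed ligands, receptors, binding proteins and substrates 15 were tested, and none was called with sesamin. With episesamin 3 of 15 were lower (2.21% of all genes were called lower). With sesamolin 1 of 15 was higher (3.28% of all genes) and 3 of 15 were lower (2.95% of all genes). The medians were -0.13, -0.15 and -0.27. Igfbp4, a binding protein that restrains IGF action, averaged 1032 ± 47.8 in sesamin-fed, 864 ± 93.9 in episesamin-fed and 899.8 ± 223 in sesamolin-fed rats, against 1242 ± 169.7 in lignan-free rats (SD, n = 5). The changes were -0.52 ± 0.13 with episesamin (adjusted p = 0.0283) and -0.48 ± 0.13 with sesamolin (adjusted p = 0.0359). Igfbp5, which lies next to Igfbp2 in the genome, averaged 20.4 ± 3.14 in sesamin-fed, 19.3 ± 3.72 in episesamin-fed and 15.1 ± 3.45 in sesamolin-fed rats, against 29.3 ± 3.36 in lignan-free rats. It changed by -0.49 ± 0.12 with episesamin (adjusted p = 0.0284) and -0.75 ± 0.12 with sesamolin (adjusted p = 0.000962); as 4 of 5 sesamolin-fed rats were below the filter level, its level with sesamolin is given as at least 1.61-fold lower.

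Htra1, a secreted protease that cleaves IGF-binding proteins, averaged 934 ± 117 in sesamin-fed, 771 ± 62.9 in episesamin-fed and 719 ± 57.8 in sesamolin-fed rats, against 1017 ± 98.6 in lignan-free rats. It changed by -0.39 ± 0.10 with episesamin and -0.49 ± 0.10 with sesamolin (adjusted p = 0.027 and 0.0055), and neither group overlapped with lignan-free rats. Igf1r, the receptor of IGF-1, which hepatocytes carry at low levels, was higher with sesamolin. It averaged 27.1 ± 5.78 in sesamin-fed, 29.5 ± 12.1 in episesamin-fed and 43.6 ± 11.9 in sesamolin-fed rats, against 21.6 ± 3.92 in lignan-free rats, and the sesamolin change was 0.83 ± 0.20, a 1.77-fold level (adjusted p = 0.0192), with no overlap. Of the genes that did not pass, Igfbp7 showed -0.34 with episesamin and -0.36 with sesamolin, and the insulin and IGF receptor adaptor Grb14 was within 0.05 in every diet. The Kupffer and endothelial marker sums given above were lower in the same 2 diets, and their part in these changes was not tested.

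**Figure D5:**
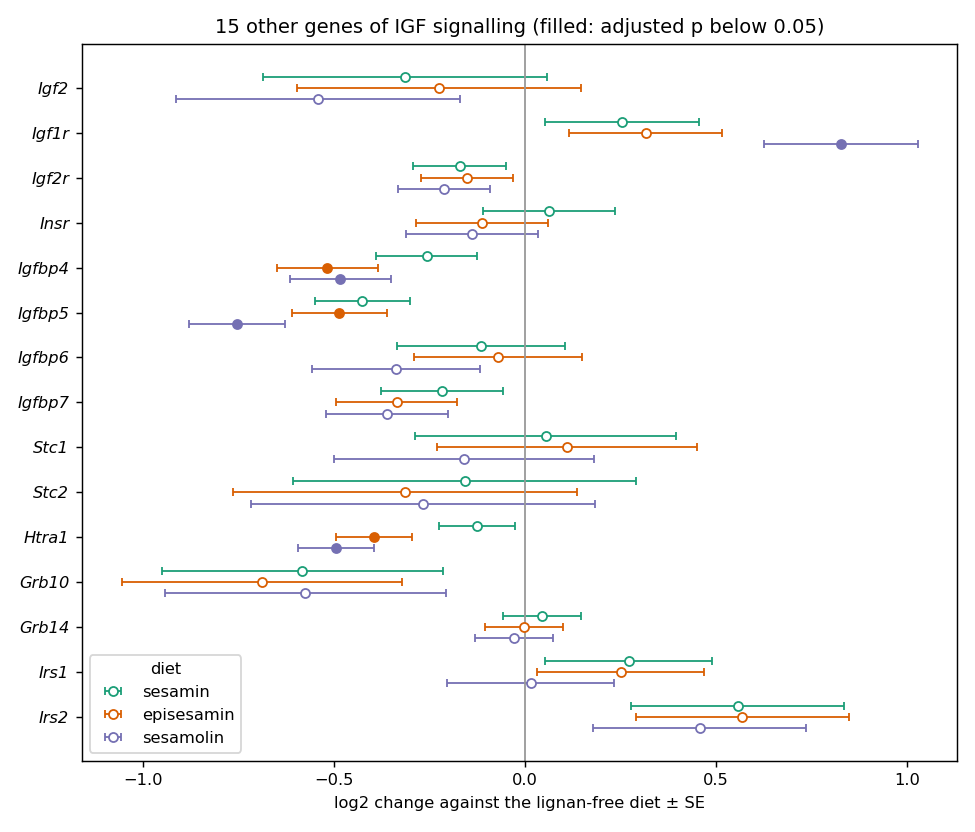
Log2 change ± SE against the lignan-free diet for 15 other genes of IGF signalling with sesamin, episesamin and sesamolin, filled where the adjusted p over all genes was below 0.05. Igfbp4, Igfbp5 and Htra1 are filled below 0 with episesamin and sesamolin, and Igf1r above 0 with sesamolin.

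Among growth hormone-dependent or sex-dependent liver genes, 1 was called. Of 20 listed genes 16 were tested, with medians of 0.01, -0.05 and 0.03. The list joins genes typical of male liver with genes typical of female liver. Medians near 0 therefore do not show that growth hormone action was unchanged. Over all genes, 2.21% were called lower with episesamin and 2.95% with sesamolin, so that 1 of 16 is near the background. None of the 16 was called with sesamin and 1 was lower with each of episesamin and sesamolin. That gene was Hao2, a peroxisomal hydroxyacid oxidase, at 5431 ± 418 in sesamin-fed, 3749 ± 412 in episesamin-fed and 3831 ± 525 in sesamolin-fed rats, against 5052 ± 682 in lignan-free rats. Its change was -0.43 ± 0.12 with episesamin (adjusted p = 0.0386) and -0.40 ± 0.12 with sesamolin (adjusted p = 0.0472), and against sesamin it was -0.54 ± 0.12 for episesamin and -0.51 ± 0.12 for sesamolin (adjusted p = 0.0243 and 0.0267). The male-specific cytochrome Cyp2c11, which depends on pulsed growth hormone, averaged 9868 ± 145 in sesamin-fed, 9472 ± 1120.1 in episesamin-fed and 10179 ± 396 in sesamolin-fed rats, against 9855 ± 230.3 in lignan-free rats, and its 3 changes lay between -0.07 and 0.05. The serpin gene Serpina3c was within 0.03 log2 units of lignan-free in all 3 diets. Over all 20 rats Cyp2c11 averaged 9843 and Serpina3c 9929. Whether signals this bright were near saturation, which would shrink differences, was not tested.

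Among 15 listed insulin-responsive and FOXO1-responsive genes, which share regulation with Igfbp1, 11 were tested and none was called with any lignan. The gluconeogenic gene Pck1 showed 0.27 ± 0.21 with sesamin, -0.26 ± 0.21 with episesamin and -0.06 ± 0.21 with sesamolin. The lipogenic regulator Srebf1 showed -0.34 ± 0.21, 0.07 ± 0.21 and 0.07 ± 0.21 in the same order. Of 14 listed transcriptional regulators of Igf1 and Igfbp1, 13 were tested, with none called with sesamin and 1 lower with each of episesamin and sesamolin. Over all genes 2.21% and 2.95% were called lower with these lignans, so that 1 of 13 is near the background. The gene called was Nr3c1, the glucocorticoid receptor, at 514 ± 78.9 in sesamin-fed, 362 ± 53.4 in episesamin-fed and 399.9 ± 45.5 in sesamolin-fed rats, against 578 ± 84.0 in lignan-free rats. The change was -0.66 ± 0.13 with episesamin (adjusted p = 0.00506) and -0.52 ± 0.13 with sesamolin (adjusted p = 0.0232). The liver factors Hnf4a and Cebpa were not called, with changes of -0.22 and -0.19 with episesamin and -0.17 and -0.08 with sesamolin.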

How the data were processed

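Livers of 20 rats were measured on 1 array each, per the labels. The authors deposited linear intensity values of 31099 probe sets, and no source used here names the software that summarised them. Intensities ran from 0.0222 to 18018 and array means differed 1.70-fold, which left the arrays unscaled, and they were quantile-normalised here, which assumes similar overall distributions. An offset of 5.85 (20th percentile) was added before log2. Only the 20832 probe sets with 1 gene symbol in the platform annotation were used (436 had several and 9831 none), without control probe sets. A probe set had to exceed 17.8 (40th percentile) on at least 5 arrays, and the brightest stood for its gene, which left 11576 genes.

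A model with 4 diet means was fitted with limma 3.58.1 in R 4.3.3 (16 residual degrees of freedom), with two-sided moderated tests and Benjamini-Hochberg adjustment over all genes of a comparison. All 13 probe sets of the members were also tested on their own, over 15894 probe sets. The fit was tested on simulated data. Replicates are separate rats. Covariation between members used 100000 permutations within diets (Python 3.11.15, scipy 1.17.1). Replicate numbers were not taken to pair rats, since the labels do not say what a number marks. Of 30 same-number pairs of arrays 10 had r above 0.1, among them all 6 pairs of arrays numbered 1 (r = 0.126 to 0.247). A fit with a replicate block is therefore given among the alternatives. Correlations of arrays within diets were 0.959 to 0.980, and no columns were identical.

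Named genes are the 8 members and, from each pathway list, up to 4 genes called against lignan-free, by lowest adjusted p, and the 2 brightest that did not pass; for likeness, the 2 genes of highest r with each member. Markers named besides these were chosen after their values were seen. The members, lists and tests were chosen with earlier results of these data known. Alternatives were median scaling or no normalisation, another offset (16, or none), another filter (none, or 45.1 at the 60th percentile), averaging over probe sets of a gene, array weights, eBayes with trend and robust settings, a fit restricted to the 2 diets at hand, a replicate block, array brightness or the actin degradation ratio as covariates, and omission of dim arrays, of the arrays numbered 1 or of single arrays. Kupffer and endothelial covariates were added after the data were seen.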

Additional observations from a re-analysis of the deposited data

Results flagged for a closer look

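Within-diet values were examined for single rats far from their group in 52 groups of 5 rats, using Dixon's 95% critical value of 0.71. Chance alone gives such a rat in about 1 in 20 groups, and 3 of 52 groups had one. For Igfbp2, episesamin replicate 4 had an intensity of 6.74, with the nearest of the other 4 rats at 29.1. For Igfbp3 on probe set 1386881_at, episesamin replicate 1 had 271, with the nearest at 326. For Cish on probe set 1388233_at, sesamolin replicate 4 had 192, with the nearest at 21.5, and the same rat had 389.7 on the other Cish probe set.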

How the results depend on the processing

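In all, 4449 values were recomputed for 123 results under 37 settings, and most of them belong to counts or to results that were not called. None of the called changes reversed direction, and 13 single values gained a call. The 22 single values that lost their call were all of Igfbp3, the only member called, and are not to be read against 4449. Members called with sesamolin against lignan-free numbered 0 without normalisation, without the 6 dim arrays and with the Kupffer covariate, and 2, with Ghr added, with the 60th percentile filter (Ghr adjusted p = 0.0401), trended and robust eBayes (0.0195) and array weights (0.0392). Leaving out each array in turn gave 1 to 2, the 2 being without lignan-free replicate 2. With episesamin against lignan-free the count was 1 when probe sets of a gene were averaged (Igfbp3, log2 -0.45, adjusted p = 0.00434) and 1 with the replicate block (Socs2, adjusted p = 0.0301). For sesamolin minus sesamin it was 0 with median scaling (Igfbp3 adjusted p = 0.157), without normalisation (0.276), with only the groups compared (0.111) and without the dim arrays (0.118), and 0 to 1 when each array was left out. The labels do not say what a replicate number marks: 10 of 20 arrays correlated best with one of their own number, and r was 0.126 to 0.247 among the arrays numbered 1, with a median of 0.00 to 0.02 for the other numbers. The F test called 0 members with median scaling, without normalisation, without the dim arrays and with the Kupffer covariate, and 2 (Igfbp3 and Socs2) with the replicate block. The cause of these moves was not tested.

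Of member probe sets, the count with episesamin against lignan-free was 2 with the replicate block. With sesamolin it was 1 without normalisation, without the dim arrays and with the Kupffer covariate. For episesamin minus sesamin it was 1 with the 60th percentile filter, trended and robust eBayes and the actin covariate, and 0 to 1 with each array left out (1 without lignan-free replicate 3 and without sesamin replicate 5). For sesamolin minus sesamin it was 1 with median scaling, only the groups compared, without the dim arrays, without the arrays numbered 1 and with the Kupffer covariate, 0 without normalisation, and 1 to 2 with each array left out (1 without sesamin replicate 1 or 5, or sesamolin replicate 2 or 5). The replicate block changed no other call. Of 28 pairs of members, 4 passed without normalisation.

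Totals over all genes moved by more than 1.5 times as well. With sesamin, episesamin and sesamolin against lignan-free, 50, 593 and 722 genes became 18, 263 and 264 without normalisation, 31, 352 and 376 with only the groups compared, and 30, 356 and 376 without the arrays numbered 1. Without the dim arrays 295 and 388 were called with episesamin and sesamolin, and 180 and 91 with the Kupffer covariate. For episesamin minus sesamin and sesamolin minus sesamin, 142 and 210 became 65 and 81 with median scaling, 12 and 23 without normalisation, 81 and 52 with only the groups compared, and 77 and 114 without the arrays numbered 1; the first became 78 with the actin covariate, and the second 105 without the dim arrays and 31 with the Kupffer covariate. The F test's 566 genes became 198 without normalisation, 293 without the dim arrays, 319 without the arrays numbered 1 and 125 with the Kupffer covariate. With single arrays left out, the counts that moved this far were 372 to 388 for episesamin and 476 for sesamolin against lignan-free, 84 to 92 for episesamin minus sesamin and 116 to 137 for sesamolin minus sesamin. Sesamolin minus episesamin gave 1 gene in place of 0 without the filter, without the dim arrays and in 3 of the single-array omissions. Igfbp2 lies near background, and 5 rats per diet leave Cish, Igfbp1, Igfbp2 and Socs2 with wide intervals.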
